A study of Mus musculus with 15 samples.

Results

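The genes described are those of the cytoplasmic ribosomal proteins, the protein parts of the ribosome outside mitochondria. Genes were taken by symbol, as those whose only symbol in the platform annotation began with Rpl or Rps and a number, or was Rplp0, Rplp1, Rplp2 or Rpsa. The pattern found 40 of the 8220 genes with 1 symbol, and each was read by its brightest probe set, a group of short probes for 1 transcript. Of the 40, 37 encode ribosomal proteins: 15 of the large subunit, 17 of the small subunit, the stalk protein Rplp0 and the 4 paralogs Rpl39l, Rpl7l1, Rps27l and Rps4l. The other 3, Rps6ka3, Rps6kb2 and Rps6kc1, are not ribosomal proteins but members or relatives of the S6 kinase families, and are given separately.

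Mouse embryonic stem (ES) cells of 3 lines were treated with fetal bovine serum for 0, 10, 30, 60 or 180 min, and total RNA was put on Affymetrix MGU74A arrays, with 15 arrays that each hold 1 line at 1 time. The cells are wild-type E14, the line E100-/-, called Srf-null here, and E100-/- rescue. Srf encodes SRF (serum response factor), which binds CArG boxes and switches on genes when serum is added. The labels give neither how Srf was removed, how the rescue was made, nor whether a line is 1 clone, and each line is 1 culture series as far as they say. The p-values therefore measure only the spread among these arrays that is left after line and time are fitted, not a spread between repeated cultures.

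Ribosomal proteins are made in equal numbers for each ribosome, and their mRNAs are among the most abundant in dividing cells. Many of these mRNAs begin with a terminal oligopyrimidine (TOP) tract, a run of C and T through which growth signals control their translation. This control acts on translation, so an mRNA level does not report it. Rplp0 and Rps18 genes are often used as references for equal loading.

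Because the TOP tract lies at the transcription start, the sequence around the start is shown for 5 genes on which the values below turn. Rps18 and Rpl7a belong to the genes that moved together, Rpl13a moved against them after quantile normalization but not under a common array median, and Rpl39l and Rpl39 are a paralog pair. Each line gives the RefSeq sequence of build GRCm38.p6 from 30 bases before to 20 bases after the annotated start, and capitals mark its longest run of C and T.
Rps18 (chr17:33955646-33955695, minus strand): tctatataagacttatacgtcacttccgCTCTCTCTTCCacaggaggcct
Rpl7a (chr2:26910777-26910826, plus strand): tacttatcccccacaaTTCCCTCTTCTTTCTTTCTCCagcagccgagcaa
Rpl13a (chr7:45128726-45128775, minus strand): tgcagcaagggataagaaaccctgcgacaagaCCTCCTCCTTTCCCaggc
Rpl39 (chrX:37085203-37085252, minus strand): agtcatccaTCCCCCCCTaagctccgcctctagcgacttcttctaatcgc
Rpl39l (chr16:10170198-10170247, plus strand): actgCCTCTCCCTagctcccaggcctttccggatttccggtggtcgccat

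The run crossed the annotated start in Rps18 (11 bases) and Rpl7a (21 bases). In Rpl13a it was 14 bases long and lay just after the start. In Rpl39 and Rpl39l it was 9 bases long and lay before the start, without reaching it. Rpl39 also had a shorter run of C and T after the start. RefSeq start sites can be some bases off the start a cell uses.

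Of the 40 genes, 31 had an entry in the promoter table, 30 of them ribosomal protein genes. The entries for Rpl7, Rpl8, Rpl32, Rps14, Rps20, Rps29, Rps4l, Rps6ka3 and Rps6kb2 were missing. A run of at least 8 C or T within 50 bases of the start, on the strand of the gene, was present in 19 of the 30 (63.3%), against 35.7% of all 27025 promoters in the table. A run of 8 A or G there was present in 9 (30.0%), against 37.2% of all. Within the 300 bases of each entry, on either strand, CCGGAAG, the core bound by ETS factors, was present in 13 of the 30 (43.3%) against 9.12%. GCCATNTT, which YY1 can bind, was present in 7 (23.3%) against 6.23%. The SRF CArG box, CC and GG around 6 A or T, was present in 1, the promoter of Rpl10a (3.33%), against 1.57%. These are matches of letters in a window and were not tested for binding.

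Several arrays stood apart, and the genotype labels had no direct check, since 0 probe sets were named Srf. The growth factor gene Igf2 was at -1853 normalized intensity units on the wild-type 0 min array against 2640 to 5223 on the other wild-type arrays, and at -1829 on rescue 0 min against 5942 to 10240 on the other rescue arrays. All 5 Srf-null arrays were below 0, so for this gene both 0 min arrays went against the rest of their lines. The rescue 0 min array correlated best across probe sets with Srf-null 180 min (r = 0.939, against at most 0.915 in its own line). Nearness to another line was found elsewhere too, since wild-type 30 min and Srf-null 10 min were each other's nearest array (r = 0.944, against at most 0.924 and 0.934 in their own lines). The 3' to 5' signal ratio of the beta-actin control, a sign of RNA quality, was highest on wild-type 0 min (7.53) and rescue 0 min (4.22). Each comparison is therefore given over 15 arrays and over the 12 arrays without 0 min. ES cell markers Pou5f1, Sox2, Zfp42, Utf1, Tdgf1, Fgf4, Nr0b1, Klf4 and Nanog were above the floor of detection on all 15 arrays. Dppa3 was above it on 13 and Esrrb on 11. Without 0 min, Dppa3 was lower in Srf-null than in wild-type cells (log2 difference -2.59, limma adjusted p 0.018). Rescue minus Srf-null was 2.99 for Dppa3 and -0.64 to -0.73 for Fgf4, Nr0b1 and Klf4 (limma adjusted p up to 0.0239). Endoderm markers Dab2, Lama1 and Sparc were above the floor on all 15 arrays. Ttr was above it on 14, Gata4 on 13, Afp on 11, Gata6 on 10 and Sox17 on 4. Of the 8 fibroblast feeder markers on the array, Col1a1 was above the floor on 15 arrays (324 to 963 units), Col3a1 on 13, Lum on 12, Dcn on 11, Thy1 on 4 and Postn on 2, while Col1a2 and Loxl1 were at or below 0 throughout. The summed feeder signal was 930 to 2877 in wild-type, 835 to 1361 in Srf-null and 859 to 1531 in rescue. In such bulk samples, fewer cells of a type and less RNA per cell cannot be told apart.

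Most ribosomal protein transcripts were very bright. After quantile normalization, which gives all arrays the same distribution of values, 26 of the 37 were above the floor (84.98 units, the 40th percentile of all values) on all 15 arrays. These 26 are called bright below, although not all were near the top: Rpl24 had ranks of 3433 to 6522. Between 6 and 19 of the 37 were among the 100 brightest probe sets of an array, and the probe set of Rpl7 was the brightest of all on 10 arrays. The probe sets of Rpl35a, a large subunit protein, and of the kinase Rps6ka3 were never above the floor, and those of Rps25, Rpl32, Rps14, Rps15, Rps20, Rpl38, Rpl39 and Rps29 were above it on 2 to 12 arrays. Rpl22 and Rps13 were above it on 14. A dim probe set can reflect its probes as well as its transcript, so no order of genes is read from these levels.

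The bright transcripts swung from array to array. Their median on the normalized log2 scale was 14.02, 13.31, 14.36, 13.25 and 14.41 in wild-type cells at 0, 10, 30, 60 and 180 min. It was 14.51, 14.16, 13.92, 14.31 and 13.80 in Srf-null cells at the same times. In rescue cells it was 13.93, 13.80, 14.13, 13.69 and 14.12. The lines overlap, and the wild-type values alternate between low at 10 and 60 min and high at 30 and 180 min. The 37 transcripts together held 1.55% to 5.67% of the positive deposited signal of wild-type arrays, 2.13% to 9.99% of Srf-null arrays and 1.93% to 2.89% of rescue arrays. The highest share, 9.99%, was that of Srf-null 0 min, where the next highest array of that line had 3.62%.

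**Figure D1:**
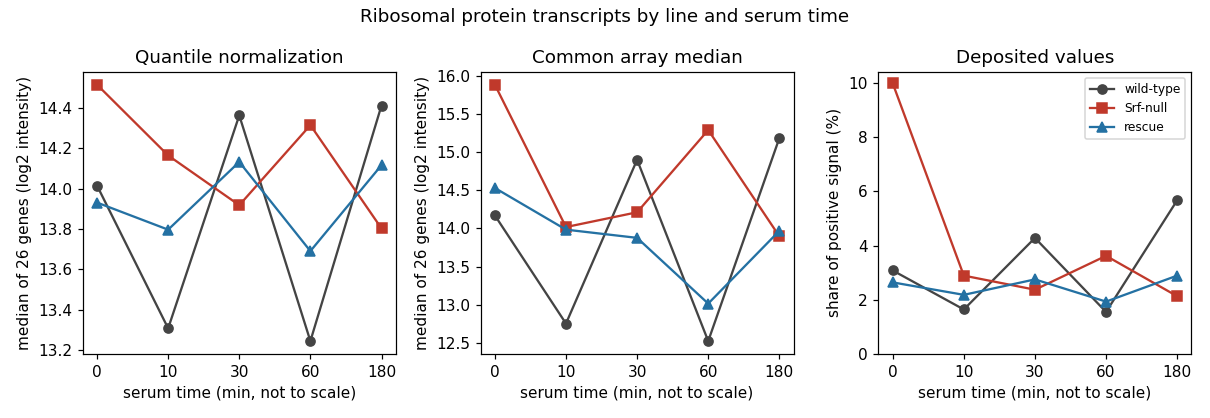
Left and middle, the median log2 intensity of the 26 bright ribosomal protein transcripts at each serum time under 2 scalings; right, the share (%) of the positive deposited signal held by the 37 transcripts. Each point is 1 array; wild-type alternates between about 13.3 and 14.4 after quantile normalization, and Srf-null 0 min has the highest share, 9.99%.

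This swing followed how bright the whole array was. The 2% trimmed mean of the deposited values ran from 348.4 on Srf-null 0 min to 1438 on wild-type 60 min, a 4.13-fold range. The 5 brightest arrays (wild-type 60 and 10 min, rescue 60 and 10 min, Srf-null 180 min) were also the 5 with the lowest ribosomal protein median. The 4 dimmest (Srf-null 0 min, wild-type 180 and 30 min, Srf-null 60 min) were the 4 with the highest. The median of the same transcripts as deposited, without scaling, was also highest on Srf-null 0 min (36978) and lowest on wild-type 60 min (13101). The part of array brightness in the values below was not tested.

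**Figure D2:**
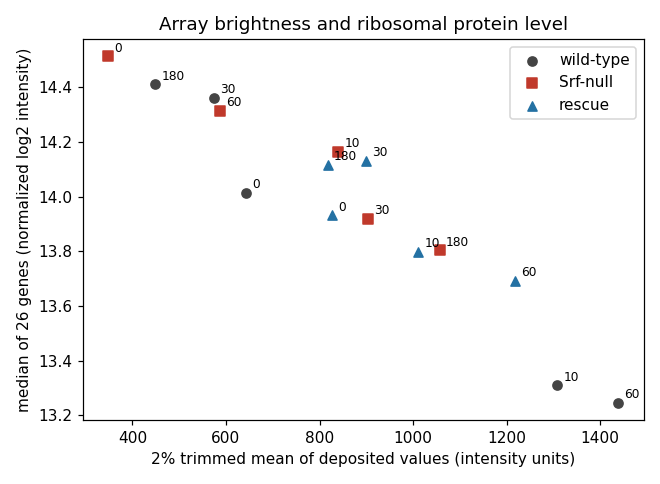
Each point is 1 array: the 2% trimmed mean of its deposited values (horizontal, intensity units) against the median normalized log2 intensity of 26 ribosomal protein transcripts (vertical), with the serum time in min beside it. The level falls from 14.51 on the dimmest array to 13.25 on the brightest, across all 3 lines.

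Scaling every array to a common median, the other scaling used, widened the swing. The bright median then ran from 12.52 on wild-type 60 min to 15.19 on wild-type 180 min, from 13.90 to 15.89 in Srf-null cells and from 13.01 to 14.53 in rescue cells. The 33 probe sets that carry several symbols with a ribosomal protein among them, left out by the rule, had medians of 13.49 to 14.43 after quantile normalization. Their lowest array was wild-type 60 min and their highest Srf-null 0 min, as for the 26.

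Not all members took part. For 13 of the 26 transcripts the correlation with the median of the other 25 was 0.849 to 0.977 over 15 arrays, which share their scaling and brightness. These were the stalk protein gene Rplp0, the small subunit genes Rps3, Rps7, Rps18, Rps19, Rps24, Rps28 and Rpsa, and the large subunit genes Rpl6, Rpl7a, Rpl8, Rpl19 and Rpl41. For 5 it was below 0: Rps27 (-0.13), Rpl7 (-0.33), the paralog Rps27l (-0.34), Rpl13a (-0.51) and the paralog Rps4l (-0.69). Rpl7 was at the highest normalized value, 41633, on the 10 arrays where it was brightest, and quantile normalization lets no transcript rise above that value. Under a common array median, 18 of the 26 had a correlation of at least 0.9. Of the 5 below 0, Rpl7 (0.97), Rpl13a (0.73), Rps4l (0.29) and Rps27 (0.16) were then above 0, and Rps27l stayed below it (-0.15).

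**Figure D3:**
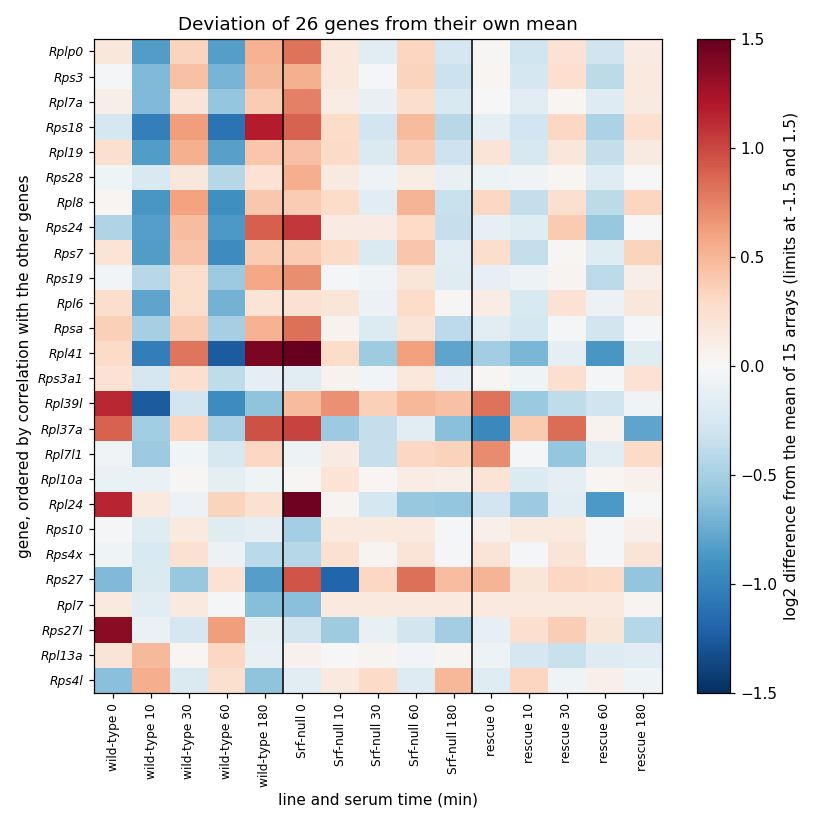
The 26 bright ribosomal protein transcripts (vertical, ordered by their correlation with the others) on 15 arrays (horizontal), coloured by the log2 difference from each transcript's own mean. The upper 13 share the low wild-type 10 and 60 min arrays and the high wild-type 180 min and Srf-null 0 min arrays, and the lowest ones do not.

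Rplp0, which anchors the stalk that recruits translation factors, shows the shared pattern. Its normalized intensity was 19819, 9815, 22096, 9943 and 25315 in wild-type cells at 0, 10, 30, 60 and 180 min. It was 30912, 19560, 15588, 22043 and 14797 in Srf-null cells and 17841, 14287, 20347, 14287 and 19198 in rescue cells. The wild-type line holds both the 2 lowest arrays and 1 of the highest, so the lines overlap. Rps18, a small subunit protein, gave 11893, 7036, 22043, 6629 and 32393 in wild-type cells, with the same 2 arrays lowest. It gave 26393, 17224, 11666, 19819 and 10721 in Srf-null cells and 12903, 11666, 17657, 10274 and 16932 in rescue cells. Both reference genes thus varied over 3.15-fold (Rplp0) and 4.89-fold (Rps18) across arrays. Rpl41, one of the smallest ribosomal proteins, varied most among the 26 bright transcripts, from 2870 on wild-type 60 min to 41633 on Srf-null 0 min. Without that array its Srf-null values were 3952 to 10414, within the wild-type range of 2870 to 18074.

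The steadiest transcripts were Rpl10a, a large subunit protein of the L1 stalk, at 17405 to 23226 units (a log2 range of 0.42), and the small subunit genes Rps3a1 (0.64) and Rps10 (0.65). Quantile normalization narrows the range of transcripts near the top: under a common median Rpl10a ran from 8543 on wild-type 60 min to 42459 on Srf-null 60 min.

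The comparison of lines asked whether transcripts differ with the Srf genotype over the time course. No ribosomal protein transcript passed the test between Srf-null and wild-type cells on 15 arrays: 0 of 36 tested were called by limma (Benjamini-Hochberg adjusted p under 0.05), and 0% of all 9558 probe sets were. At an unadjusted p under 0.05 there were 2 of the 36, against 9.58% of all. The median difference of the 36 was 0.17 on the log2 scale (all tested, 0.02), with 26 higher and 10 lower in Srf-null cells. Small subunit genes had a median of 0.06 and large subunit genes 0.20. Under a common array median the 35 tested genes had a median of 0.67, where all tested probe sets had 0.25, and 0 passed. Against the shift of all probe sets, the sign over 15 arrays was the same in both scalings.

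Without the 0 min arrays, 1 of 36 was called higher in Srf-null than in wild-type cells, Rpl39l, against 0.381% of all 9198 probe sets tested. At an unadjusted p under 0.05, Rpl39l was again the 1, against 12.2% of all. The median of the 36 was then 0.11 (all tested, 0.02), and that of the 14 large subunit genes was -0.03. Under a common array median the members' median without 0 min was 0.433 (all tested, 0.405). Under a common trimmed mean it was -0.07 (all tested, -0.03), so its sign depended on the scaling.

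Rpl39l encodes a paralog of Rpl39, a small protein at the exit tunnel of the large subunit, and is known mainly from testis. Its normalized intensity was 5223, 1005, 1952, 1237 and 1570 in wild-type cells at 0, 10, 30, 60 and 180 min. In Srf-null cells it was 3318, 3826, 3062, 3362 and 3232, and in rescue cells 4203, 1630, 1832, 1938 and 2296. From 10 min on, all 4 Srf-null arrays were above all 8 arrays of both other lines, with no overlap. How many of all probe sets separate in this way was not counted, and Rpl39l was picked by its call on these same arrays. At 0 min the order was reversed, and the wild-type and rescue 0 min arrays, the same that stood apart by Igf2, were the 2 highest of all 15. Those arrays also had the highest beta-actin 3' to 5' ratios, while by Gapdh wild-type 0 min was high (1.51) and rescue 0 min was not (0.72). After 0 min the beta-actin ratio was 1.64 to 3.83 in Srf-null, 0.847 to 2.11 in wild-type and 0.914 to 1.42 in rescue cells. Leaving out 0 min thus did not make this ratio even between lines. By Gapdh the same arrays had 0.686 to 0.785, 0.683 to 1.23 and 0.686 to 0.763. The part of RNA quality in these values was not tested.

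Over 12 arrays Rpl39l was higher in Srf-null than in wild-type cells by 1.27 ± 0.19 (log2 difference ± SE, 4 arrays of each line), or 2.40-fold, with a limma adjusted p of 0.0232. Over 15 arrays the difference was 0.88 ± 0.28, higher in 4 of 5 times, with a limma adjusted p of 0.381. Rescue minus Srf-null was -0.81 ± 0.19 over 12 arrays, lower in 4 of 4 times, and did not pass (limma adjusted p 0.0592). It passed under a common array median (-1.26 ± 0.26, limma adjusted p 0.0371) and a common trimmed mean (-0.94 ± 0.17, limma adjusted p 0.0184). Rescue minus wild-type did not pass the test (0.45 ± 0.19 over 12 arrays, limma adjusted p 0.471). The call against wild-type over 12 arrays held when any of 7 single arrays was left out and was lost when any of the others was (wild-type 10, 60 or 180 min, Srf-null 60 or 180 min), where limma adjusted p values over all 12 cases ran from 0.0213 to 0.113. The difference itself ran from 1.08 to 1.46 over those 12 cases. The call was also lost without an intensity trend in the test (1.26, limma adjusted p 0.0697), with each array's percentage of values at or below 0 added to the model (1.42, limma adjusted p 0.303), and when arrays were scaled to the ribosomal protein median (1.15, limma adjusted p 0.541), with a difference of about the same size.

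Rpl39 itself gave little signal. It was 20.1, 43.9, 151, 147 and 431 units in wild-type cells, 241, 143, 227, 302 and 65.8 in Srf-null cells and 237, 83.4, 135, 101 and 103 in rescue cells. The lines overlap, and values under the floor of 84.98 units have no order. Srf-null minus wild-type was 0.31 ± 0.50 over 15 arrays (limma adjusted p 0.84).

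**Figure D4:**
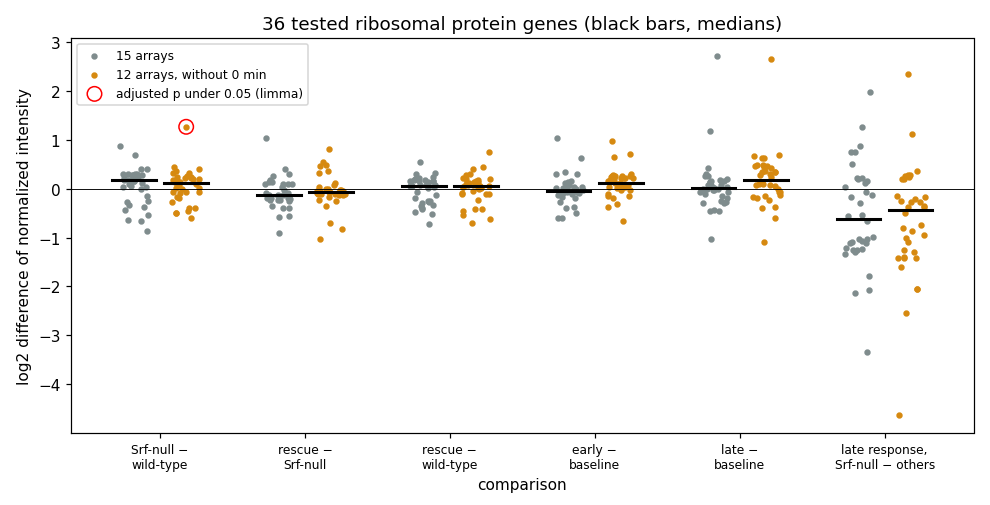
Log2 differences of the 36 tested ribosomal protein transcripts in 6 comparisons, on 15 arrays and on the 12 arrays without 0 min; each point is 1 gene, black bars are medians, and a red circle marks limma's adjusted p under 0.05. Rpl39l, at 1.27 in Srf-null minus wild-type without 0 min, is the 1 circled gene.

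Between rescue and Srf-null cells, limma called 0 of the 36 on 15 arrays, against 0.22% of all, and 0 were under an unadjusted p of 0.05, against 9.19%. The median was -0.13 (all tested, -0.02), with 24 of 36 lower in rescue cells. Without 0 min limma called 0 of 36, against 2.4% of all, and 2 were under an unadjusted p of 0.05 (Rpl39l and Rps27l), against 13.8%. The median was then -0.06 (all tested, -0.01). Under a common array median it was -0.58 on 15 arrays (all tested, -0.07) and -0.60 without 0 min (all tested, -0.26), and under a common trimmed mean without 0 min it was -0.27 (all tested, 0), so its size depended on the scaling. Between rescue and wild-type cells limma called 0 of 36 on 15 arrays, against 0% of all, and 2 were under an unadjusted p of 0.05, against 7.25%. Without 0 min limma called 0 of 36, against 0.522%, with 2 under an unadjusted p of 0.05, against 9.97%. The medians of that pair were 0.06 and 0.05 (all tested, 0 and 0), and under a common array median -0.04 and -0.12 (all tested, 0.16 and 0.11), so their sign turned with the scaling. All 3 comparisons of lines share arrays, so their values are not independent of each other.

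Rpl13a, a large subunit protein also known for silencing inflammatory mRNAs when released from the ribosome, was the transcript nearest a difference between rescue and wild-type cells. It gave 17002, 20828, 15245, 18532 and 13827 in wild-type cells, 15641, 15031, 15366, 14463 and 15298 in Srf-null cells and 14129, 12530, 11860, 13035 and 13260 in rescue cells. Rescue was below wild-type at all 5 times, by 0.39 ± 0.12 on the log2 scale, although the highest rescue array overlaps the lowest wild-type one. The limma adjusted p was 0.457, so the difference did not pass. With arrays at a common median it was -0.13 ± 0.39 (limma adjusted p 0.949), and rescue was then above wild-type at 0 min (22101 against 19038) and at 10 min (14563 against 10557).

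For the S27 pair no difference between lines passed. Rps27 encodes a small subunit protein and Rps27l its paralog, which is known as a p53 target. Rps27 gave 1195, 1623, 1274, 2195 and 1065 in wild-type cells, 3638, 826, 2332, 3340 and 2602 in Srf-null cells and 2689, 2143, 2332, 2306 and 1247 in rescue cells. Srf-null arrays were above wild-type at 4 of 5 times (0.68 ± 0.32, limma adjusted p 0.522), with 10 min as the exception. Rps27l gave 6390, 2323, 2096, 3869 and 2266 in wild-type cells, 2062, 1731, 2306, 2061 and 1734 in Srf-null cells and 2286, 2981, 3221, 2832 and 1853 in rescue cells. Its Srf-null minus wild-type difference was -0.64 ± 0.25 (limma adjusted p 0.466), and the wild-type 0 min array held its highest value. Under a common array median the same difference was -0.22 ± 0.39 for Rps27l, turning to 0.25 ± 0.31 without 0 min, and 1.10 ± 0.45 and 1.07 ± 0.48 for Rps27. The direction of Rps27l thus depended on the scaling and on the 0 min arrays, and that of Rps27 did not in these settings. Whether the pair differed from each other was not tested.

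**Figure D5:**
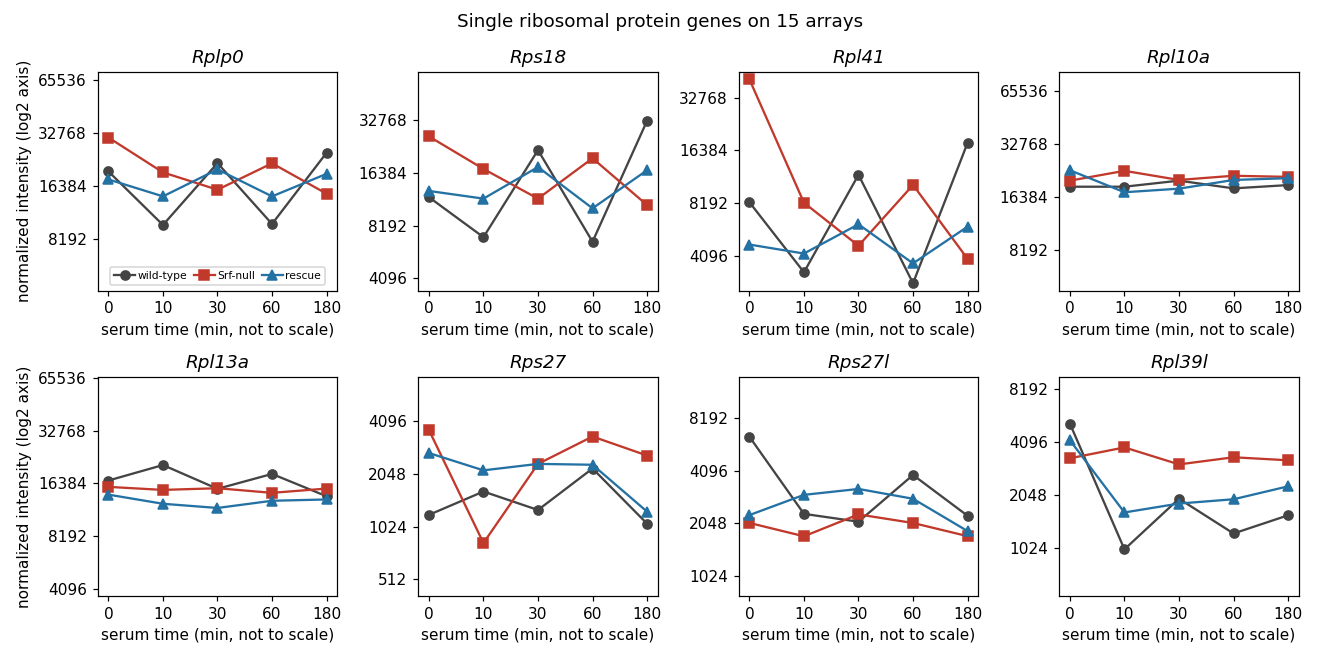
Normalized intensity (log2 axis, the same span in each panel) of 8 ribosomal protein transcripts by serum time in 3 lines, 1 array per point. Rplp0, Rps18 and Rpl41 share the alternating wild-type values, Rpl10a is nearly flat, and Rpl39l is higher in Srf-null cells from 10 min on.

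Among the other named genes, no difference between lines passed. Rpl22, whose protein also binds regulatory RNAs, was 395 to 1209 in wild-type and 497 to 1126 in rescue cells, and in Srf-null cells it ran from -33.6 at 0 min to 1118 (Srf-null minus wild-type -0.87 ± 0.61, limma adjusted p 0.661). Rpl24, a large subunit protein that joins late in assembly, was 341 to 797, 242 to 993 and 199 to 362 in wild-type, Srf-null and rescue cells, with both upper values at 0 min. Rpl38, whose loss in mice alters the translation of Hox mRNAs, was above the floor on 10 arrays, with its highest value, 497, on Srf-null 0 min. The small subunit gene Rps19, mutated in Diamond-Blackfan anaemia, had a difference of 0.16 ± 0.20, and Rpsa, also known as the laminin receptor, 0.04 ± 0.23 (limma adjusted p 0.8 and 0.958). The X-linked gene Rps4x had 0.12 ± 0.15 and its paralog Rps4l 0.25 ± 0.19 (limma adjusted p 0.805 and 0.69).

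Where a gene has several probe sets, they did not always go one way. Rps24, a small subunit gene, had 0.40 by its brighter probe set and -0.31 by the other in Srf-null minus wild-type cells. The brighter one carries the same accession as the probe set of Rpl7, so its name is uncertain. A dimmer probe set of Rps4x had -0.30 where the brighter had 0.12. The 2 of Rps28 that were tested and above the floor on all arrays had 0.19 and 0.94, and without 0 min 0.08 and 0.01.

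The comparison of serum times asked whether transcripts respond to serum. In the early phase (30 and 60 min against 0 and 10 min, mean of 3 lines) limma called 0 of 36 on 15 arrays, against 0% of all, and 0 were under an unadjusted p of 0.05, against 3.86%. Without 0 min limma called 0 of 36, against 0% of all, and again 0 were under an unadjusted p of 0.05, against 2.24%. The medians were -0.04 and 0.12 (all tested, 0.00 and -0.01), and under a common array median -0.24 and 0.28, with opposite signs with and without 0 min in both scalings. In the late phase (180 min against the same baseline) limma called 0 of 36, against 0% of all, and 1 was under an unadjusted p of 0.05, Rps13, against 3.91%. Without 0 min limma called 0 of 36, against 0.207%, and 2 were under an unadjusted p of 0.05, Rps13 and Rpl38, against 6.93%. The late medians were 0.01 and 0.18 (all tested, -0.01 and -0.02). Without 0 min the late median was 0.56 under a common array median (all tested, -0.05) and 0.63 under a common trimmed mean (all tested, 0). Its size thus depended on the scaling.

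Rps13, a small subunit protein, had the widest values. It gave 1211, 449, 4483, 565 and 6876 in wild-type cells, -553, 3934, 749, 2760 and 2939 in Srf-null cells and 2768, 205, 623, 2388 and 4518 in rescue cells. The 180 min array was the highest of its line in wild-type and rescue cells but not in Srf-null cells, and the times overlap. The late difference was 2.72 ± 1.15 (limma adjusted p 0.995). Rps29, a small subunit gene near the floor, had 1.18 ± 0.68 (limma adjusted p 0.995), and Rps18 0.43 ± 0.43.

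By line, the late response had different signs. In wild-type cells 22 of 36 transcripts were higher at 180 min than at baseline and 13 lower, with a median of 0.32. In Srf-null cells 10 were higher and 26 lower, with a median of -0.47. In rescue cells 21 were higher and 13 lower, with a median of 0.09. Limma called 0 of the 36 in each line, with 4, 0 and 0 under an unadjusted p of 0.05. Under a common array median the 3 late medians were 1.23, -0.98 and -0.30 over 35 tested genes, where all tested probe sets had -0.08, 0.35 and -0.43. Relative to all tested probe sets, each line's sign was therefore the same under both scalings. Without 0 min they were 0.68, -0.25 and 0.22 after quantile normalization and 1.96, -0.08 and -0.02 under a common median. All tested probe sets then had 0 in each line after quantile normalization, and -0.035, 0.28 and -0.355 under a common median. Relative to them, each line's sign was again the same under both scalings. The late phase of each line is 1 array: wild-type 180 min was among the 4 dimmest arrays and Srf-null 180 min among the 5 brightest.

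The difference of late response, Srf-null minus the mean of both other lines, was tested itself. Limma called 0 of 36 on 15 arrays, against 0.0105% of all, and 4 were under an unadjusted p of 0.05, against 7.76%: Rpl39 (-2.07 ± 0.78), Rpl41 (-3.33 ± 1.30), Rps18 (-2.14 ± 0.83) and Rps24 (-1.79 ± 0.72), with limma adjusted p from 0.597 to 0.636. The median of the 36 was -0.61 (all tested, 0.04), with 24 lower in Srf-null cells. Large subunit genes had a median of -1.10 and small subunit genes -0.56. Without 0 min, the baseline and the late phase of each line are a single array each. The spread left in that fit comes only from the early arrays, which do not enter this difference. It therefore cannot judge the difference, and only effect sizes are given. Rpl39 had -2.06 and Rps27 had 2.35 without 0 min. The median was then -0.44 (all tested, 0.06). With arrays at a common median it was -1.17 over 15 arrays (all tested, 0.61) and -1.02 without 0 min (all tested, 0.53).

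The kinases that the symbol pattern took in phosphorylate ribosomal protein S6 or are related to such enzymes. Rps6kb2, S6 kinase 2, was 608 to 903 in wild-type, 552 to 1342 in Srf-null and 580 to 938 in rescue cells (Srf-null minus wild-type 0.25 ± 0.28, limma adjusted p 0.771). Rps6kc1 was above the floor on 12 arrays and had 0.09 ± 0.47 (limma adjusted p 0.958).

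Other genes of ribosome production and translation were read beside the ribosomal proteins. Of 37 tested ribosome biogenesis genes, limma called 0 in all 6 comparisons on 15 arrays, with 0 to 3 under an unadjusted p of 0.05 in each. Without 0 min 1 fell in rescue against Srf-null cells, Nop56, a core protein of box C/D small nucleolar particles that guide rRNA modification (-0.59 ± 0.10, limma adjusted p 0.0148), beside 2.4% of all probe sets called in that comparison. Their median difference of late response was 0.27 on 15 arrays and 0.38 without 0 min. The 23 translation factors and other TOP mRNAs had medians of -0.06 and -0.02 in that comparison, and the 57 tested mitochondrial ribosomal protein genes 0.13 and -0.14. Limma called 0 of these genes in each comparison, with 0 to 5 of a list under an unadjusted p of 0.05 on 15 arrays and 0 to 6 without 0 min. The array medians of the TOP mRNA list ran from 12.99 to 13.62, and those of the 26 bright transcripts from 13.25 to 14.51. These lists differ in size and brightness, and no count is read for the difference of late response without 0 min. No C and T tract was looked for in the TOP mRNA list, and the part of the tract in these values was not tested.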

How the data were processed

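Total RNA of 15 ES cell samples was read on Affymetrix arrays, per the labels. The authors' deposited values are linear intensity. How they corrected background and scaled arrays is not given in the sources used here, and 24.9% to 41.6% of values per array were 0 or negative. Values of 12654 probe sets (66 controls) were quantile-normalized, set to a floor at the 40th percentile and put on log2. Those exceeding it on 2 or more arrays were tested with limma 3.58.1 in R 4.3.3 (eBayes with trend, Benjamini-Hochberg): line plus time with 8 residual degrees of freedom (6 without 0 min), and line by phase with 6 (3 without 0 min). The script was tested on simulated data. Members and lists were chosen with earlier results of these data known, and so were the arrays doubted.

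Symbols came from the platform annotation; all 40 matched RefSeq by gene identifier. No column lacked a sample, and no arrays were identical. Named genes were called members, the 3 largest rises and falls per comparison of lines and late response, a fixed set, and the 3 smallest and largest ranges. Genes under an unadjusted p of 0.05, and those with disagreeing probe sets, were added after their values were seen. The number of arrays limits the precision. Alternatives changed the scaling, floor, filter, probe set, model and arrays.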

Additional observations from a re-analysis of the deposited data

Results flagged for a closer look

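In 75 groups of 5 arrays, a highest or lowest array lay apart from the other 4 in 9, by a gap of more than 0.71 of the group's range. The groups were the named genes with a value above the floor, the signal share and the bright median, each by line. Chance gives about 1 in 20 for groups picked without regard to their values. Many of these genes were picked by their values here, and the groups share arrays, so the 9 cannot be judged against that rate. All 9 were 0 min arrays. Rpl39l was at 5223 on wild-type 0 min, against 1005 to 1952 on the other wild-type arrays, and at 4203 on rescue 0 min, against 1630 to 2296. On Srf-null 0 min, Rpl41 was at 41633 (others 3952 to 10414), Rpl38 at 497 (66.1 to 182.3), Rpl24 at 993 (241.8 to 373), Rpl32 at 411 (13.82 to 102.1) and Rps6kc1 at -96.2 (195.9 to 309). Rpl24 was at 797 on wild-type 0 min (340.6 to 455.1). The share of the positive signal held by ribosomal protein transcripts was 9.99% on Srf-null 0 min, against 2.13% to 3.62%. Srf-null 0 min was the dimmest array and its highest deposited value was 130660, against 30451 to 49413 on the other 14. The part of brightness in these values was not tested.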

How the results depend on the processing

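Of the counts of called genes, 159 values under an alternative stayed at the reported count and 5 were higher. Of the medians, 160 moved by less than the spread (1 SD over the 5 times for lines, over the 3 lines for serum responses) and 4 by more. That spread was 0.80 for Srf-null minus wild-type, 0.48 for rescue minus Srf-null and 0.52 for rescue minus wild-type. For serum it was 0.20 in the early phase and 0.79 in both late comparisons. Each spread was larger than the size of the reported median, so a median could change sign within it, except for the difference of late response. There the spread over the 3 lines holds that difference itself, so it cannot judge the sign of its median. Srf-null against wild-type had 1 call (Rpl39l) without the 0 min arrays and without the wild-type and rescue 0 min arrays alone (limma adjusted p 0.0232 and 0.0317; range over the alternatives on the whole set 0.0232 to 0.906). The early phase had 1 call (Rpl32) without the wild-type and rescue 0 min arrays, where 291 probe sets were called, and its median was -0.24 under a common trimmed mean. The difference of late response had 2 calls (Rpl41 and Rpsa) with each array's percentage of values at or below 0 in the model, and its median was -1.98 under a common trimmed mean, 0.58 under a common ribosomal protein median (all tested probe sets, 1.23, so it stayed below them) and -2.48 with that term. When 1 array was left out, the count in that comparison was 0 to 1 (Rpl32, without Srf-null 10 min), and the other medians and counts kept to the spread; the cause was not tested. Scaling to a common median moved the median of all probe sets by over 0.1, to 0.25 in Srf-null minus wild-type and 0.61 in the difference of late response, where the ribosomal protein medians were 0.67 and -1.17. A floor at the 20th percentile was not run, since that percentile is below 0 (-102.4); a floor at the 50th, chosen after seeing the data, was used. Time was a term in the model, so lines were compared within times. Few arrays and the dim probe sets of 9 genes limit what can be detected.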
